A study of Mus musculus with 4 samples.

Results

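Interferon-stimulated genes were examined in whole embryonic lung of mice with and without *Hmga2*, a gene of the high mobility group family of chromatin proteins. The list held 42 genes that are raised in many cell types when an interferon signals. It was written by name, with earlier results of these data known, so no test of the list as a whole was run. A gene was measured when a probe set of the array, a group of probes for a single transcript, was annotated with that gene alone, and the brightest probe set stood for a gene with several. This gave 40 of the 42 genes, out of 19938 measured genes in all. *Isg15* and *Ifi44* were not analysed here. For *Irf1*, the only member with more than 1 probe set, the brighter had a difference of −0.60 between genotypes and the other of −0.14 on the log2 scale.

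RNA came from lungs of C57BL/6 embryos at embryonic day 18.5, 2 of them WT (*Hmga2*+/+) and 2 *Hmga2* KO (*Hmga2*-/-), each hybridised to 1 Affymetrix array. The deletion is carried in the germline and so is not limited to lung, and the RNA was that of the whole organ. The samples are labelled biological replicates. Both WT titles carry the name WT1 with replicate numbers 1 and 2, while the KO titles read KO1 and KO2, and whether each came from a separate embryo or litter is not stated, so p values measure only the spread between these samples. All values are log2 expression values made by the authors with the RMA method, so that a difference of 1 is a 2-fold change. Differences are always given as KO minus WT.

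The probe set of *Hmga2* itself read 9.35 and 9.59 in WT on the log2 scale, and 9.65 and 9.39 in the KO-labelled arrays. These groups overlap, so the targeted gene does not separate the arrays. The sources used here do not say whether its probes lie in the deleted sequence, and the KO arrays are therefore called KO-labelled arrays below. Over all genes, Pearson's r was 0.998 between the KO-labelled arrays, 0.987 between the WT arrays, and between 0.975 and 0.992 for arrays of different genotype, with WT replicate 1 at the lowest values. WT replicate 2 thus correlated more with KO replicate 1 (0.992) and KO replicate 2 (0.991) than with WT replicate 1. The lung marker *Nkx2-1*, a transcription factor of lung epithelium, had values from 11.31 to 11.47 on the 4 arrays. Of 12 lung epithelium markers 8 had a lower mean in the KO-labelled arrays, a share near the 58.8% of all genes, and 4 a higher one. At an adjusted p under 0.05, 3 of the 12 fell (0.702% of all genes). They were *Scgb1a1* of club cells (−2.69, adjusted p = 0.00283 from limma), *Aqp5* (−2.20) and *Sftpa1* (−1.10). *Sftpc*, a surfactant gene, was at −0.10 (adjusted p = 0.728) and *Epcam*, of all epithelium, at 0.69 (adjusted p = 0.178).

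Interferons are secreted proteins that warn cells of viral infection. They bind receptors at the cell surface whose kinases phosphorylate STAT proteins, and in the type I pathway STAT2 and IRF9 are part of the complex that enters the nucleus and binds the interferon-stimulated response element. Genes with this element encode sensors of viral RNA, enzymes that degrade RNA or stop translation, modifiers of the ubiquitin-like protein ISG15 and blockers of viral entry and release. Many are expressed at a low level without infection, and several encode parts of the pathway itself, such as IRF7, IRF9 and STAT2.

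The core of the response element was searched in the promoters of the members. The list was drawn up without sequence, but it names genes that interferons raise. A share above that of all genes could therefore be foreseen. The letters searched were GAAANNGAAA, on both strands, where N is any base. The RefSeq promoter windows of assembly GRCm38.p6 run from 250 bases before to 50 bases after a transcription start, and 31 of the 42 genes were in that table. The element core was present for 13 of them (41.9%), against 3.99% of all 27025 genes in the table. The 6 stretches printed here are from the measured genes with the element that had the smallest p values. Only the promoter windows were searched, so every match lies near a start by design. Capitals mark the matches, which are the reverse complement of these letters where the element lies on the other strand. Each stretch is given 5′ to 3′ on the strand of the gene.
Ifih1 (chr2:62646206-62646233, minus strand, bases 23 to 50 from the start): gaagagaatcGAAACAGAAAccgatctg
Trim30a (chr7:104446096-104446153, minus strand, bases −28 to 30 from the start): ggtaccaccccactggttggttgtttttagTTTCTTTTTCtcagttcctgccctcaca
Ifitm3 (chr7:141010715-141010772, minus strand, bases −28 to 30 from the start): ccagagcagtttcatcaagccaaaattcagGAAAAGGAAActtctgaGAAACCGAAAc
Rsad2 (chr12:26456533-26456602, minus strand, bases −150 to −81 from the start): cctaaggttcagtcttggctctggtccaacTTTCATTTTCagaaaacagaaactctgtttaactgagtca
Ddx58 (chr4:40239796-40239853, minus strand, bases −28 to 30 from the start): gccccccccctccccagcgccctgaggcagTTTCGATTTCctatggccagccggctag
Ifit3 (chr19:34583343-34583446, plus strand, bases −186 to −83 from the start): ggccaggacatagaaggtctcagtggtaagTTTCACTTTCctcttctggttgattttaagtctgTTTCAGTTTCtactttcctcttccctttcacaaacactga

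Interferon-stimulated genes had lower values in the KO-labelled arrays, nearly without exception. The mean was lower for 39 of the 40 measured members and for 58.8% of all genes. For the same 39 both KO-labelled arrays lay below both WT arrays, which held for 31.8% of all genes. Both lay above both WT arrays for 0 members and for 17.6% of all genes. The median difference of the members was −0.89, a level 1.85-fold higher in the WT arrays, while the median over all genes was −0.051. A mean at least 2-fold lower was found for 16 members, or 40%, and for 1.09% of all genes. In limma's moderated test, with Benjamini-Hochberg adjustment across the 19938 genes, 10 of the 40 members fell (25.0% of them, where 0.702% of all genes fell) and 0 rose (0.0802% of all genes). At an unadjusted p under 0.05, 36 members were lower (8.58% of all genes) and 0 higher (5.88% of all genes). The members that fell were *Rtp4*, *Oasl2*, *Trim30a*, *Irf7*, *Usp18*, *Ifih1*, *Dhx58*, *Lgals3bp*, *Irf9* and *Ifitm3*. At an adjusted p under 0.10, 21 members were lower, against 1.76% of all genes. The call of all 10 rested on having both KO-labelled arrays, since leaving out KO replicate 1 or KO replicate 2 gave 0 calls among members, of which 32 and 26 then had an unadjusted p under 0.05. Over all genes these settings called 1 and 0, with 1057 and 968 at an unadjusted p under 0.05. The sizes changed little, with a median of the members of −0.95 and −0.81 and *Rtp4* at −2.52 and −2.28. Without WT replicate 1, 32 members fell, and without WT replicate 2, 39 fell, against 5.68% and 14.9% of all genes. In each of these settings the group with 1 array left is assumed to vary like the other.

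**Figure D1:**
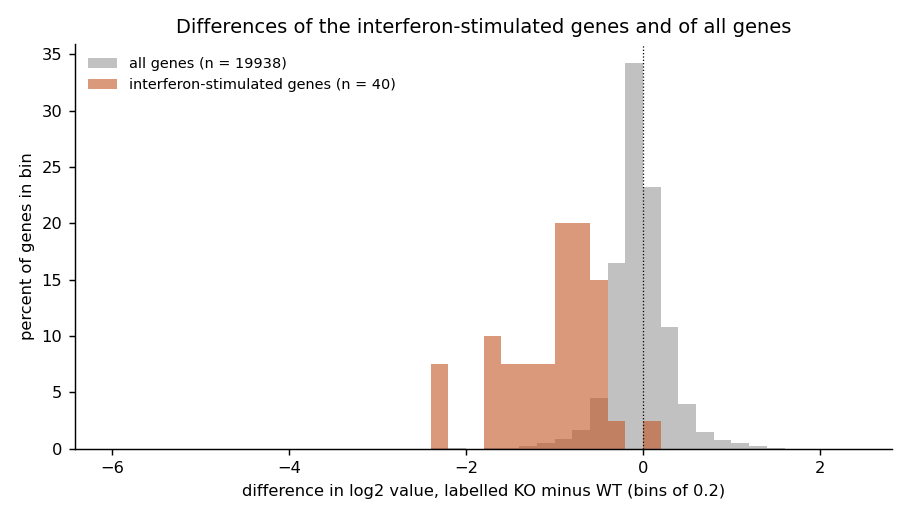
Distribution of the difference in log2 value (labelled KO minus WT, bins of 0.2) over all 19938 genes in grey and over the 40 interferon-stimulated genes in orange, each as a percent of its own total. The members spread from −2.40 to 0.0081 with a median of −0.89, and all genes centre on a median of −0.051.

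Transcription factors of the interferon response were lower in the KO-labelled arrays, all 4 of them. *Irf7*, which drives transcription of interferon genes and is itself induced by them, had log2 values of 8.90 and 8.54 in WT and of 7.37 and 7.01 in the KO-labelled arrays. It fell by 1.53 on the log2 scale (standard error, SE, 0.19, n = 2 per group, adjusted p = 0.0302 from limma). *Irf9*, the DNA-binding part of the type I interferon complex, had 9.68 and 9.56 in WT and 8.52 and 8.59 in the KO-labelled arrays. It fell by 1.07 (SE 0.13, adjusted p = 0.0289). For both genes the gap between the groups was several times the gap within either group. *Stat2*, the partner of IRF9 in that complex, had a difference of −0.90 (SE 0.20, adjusted p = 0.125) and its WT arrays stood apart, at 9.89 and 9.33. *Irf1*, a factor that responds mainly to interferon gamma, had a difference of −0.60 (SE 0.17, adjusted p = 0.196), with WT replicate 2 above WT replicate 1, the reverse of most members.

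Sensors of viral nucleic acid and their regulators were lower as well, 7 of 7 measured. The family of RNA helicases that detect viral RNA in the cytoplasm has 3 members, and all were measured. *Ifih1*, which encodes the sensor MDA5, had log2 values of 9.38 and 9.06 in WT and of 7.93 and 7.88 in the KO-labelled arrays. It fell by 1.32 (SE 0.15, adjusted p = 0.0261 from limma), a level 2.49-fold higher in WT. *Dhx58*, which encodes LGP2, a regulator of the other helicases, had 7.86 and 7.82 in WT and 6.73 and 6.54 in the KO-labelled arrays, and fell by 1.21 (SE 0.13, adjusted p = 0.0252). *Ddx58*, which encodes RIG-I, had 10.62 and 10.46 in WT and 9.77 and 9.63 in the KO-labelled arrays. Its difference of −0.84 (SE 0.14, adjusted p = 0.0620) did not pass the threshold, although its groups were separate by more than the gap within either of them. *Ddx60*, a helicase that acts with RIG-I, had the widest gap between WT arrays of all members, 7.78 against 5.98, beside 5.42 and 5.46 in the KO-labelled arrays. Its difference of −1.44 (SE 0.52, adjusted p = 0.288) was −0.54 against WT replicate 2 alone. *Eif2ak2*, the kinase PKR that stops translation, *Adar*, which edits adenosines in double-stranded RNA, and *Zbp1*, a sensor of left-handed nucleic acid, had differences of −0.53, −0.64 and −0.51 with adjusted p of 0.236, 0.184 and 0.202.

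**Figure D2:**
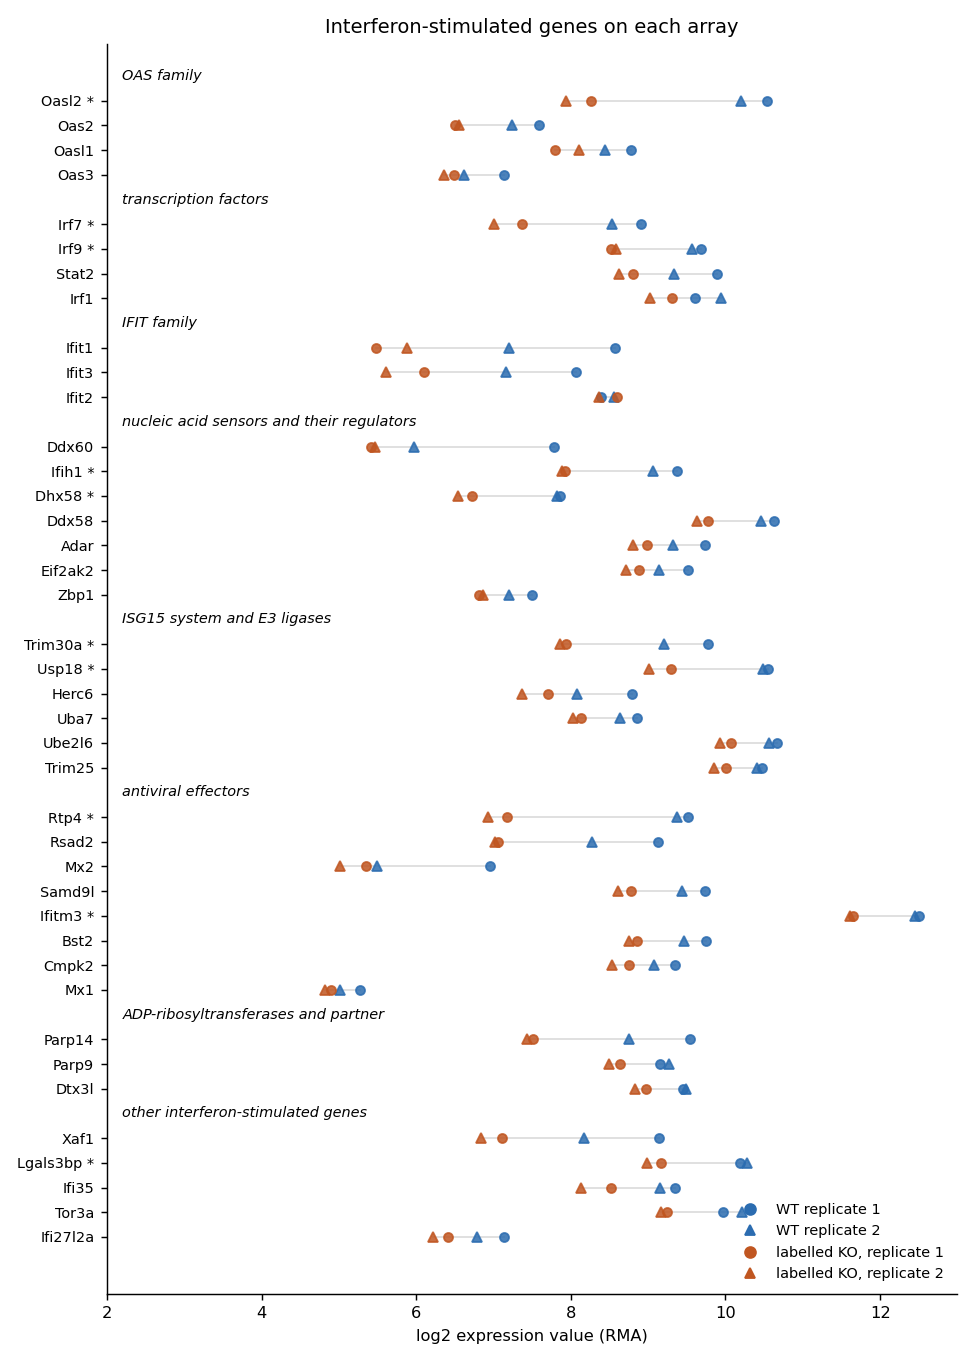
Log2 expression value of each measured interferon-stimulated gene on each array, grouped by role, with WT in blue, labelled KO in orange, replicate 1 as a circle and replicate 2 as a triangle. An asterisk marks the 10 genes called lower by limma; orange symbols lie left of the blue ones in every row but that of *Ifit2*, and levels of different genes are not comparable.

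Within the IFIT family, whose proteins bind viral RNA and block its translation, *Ifit1* and *Ifit3* were among the members with the largest differences and *Ifit2* had almost none. *Ifit1* had log2 values of 8.58 and 7.20 in WT and of 5.49 and 5.88 in the KO-labelled arrays. Its difference was −2.20 (SE 0.42, adjusted p = 0.0849 from limma). *Ifit3* had 8.07 and 7.16 in WT and 6.10 and 5.61 in the KO-labelled arrays, a difference of −1.76 (SE 0.31, adjusted p = 0.0754). Neither passed the threshold, and in both the WT arrays differed from each other by 0.91 or more. *Ifit2* had 8.38 and 8.55 in WT and 8.59 and 8.36 in the KO-labelled arrays, so that the groups overlapped. Its difference of 0.0081 (SE 0.15, adjusted p = 0.984) turned to −0.077 without WT replicate 1 and to −0.11 without KO replicate 1. *Ifit2* and *Ifit3* are neighbours on chromosome 19. In the promoter windows the element core was found for *Ifit1* and *Ifit3*, at 2 positions each, and these letters were not in the windows of *Ifit2*. The mouse genome holds close copies of some members, *Ifit1*, *Ifit3*, *Trim30a* and *Ifi27l2a* among them, and the probes may bind RNA of the copies too.

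The OAS family includes enzymes that make oligoadenylates, which activate the nuclease RNase L, and it also holds OAS-like members. All 4 measured genes had lower means in the KO-labelled arrays. *Oasl2* had log2 values of 10.54 and 10.20 in WT and of 8.26 and 7.94 in the KO-labelled arrays. It fell by 2.27 (SE 0.18, adjusted p = 0.00803 from limma), a level 4.83-fold higher in WT. Its neighbour on chromosome 5, *Oasl1*, had a difference of −0.66 (SE 0.18, adjusted p = 0.170), so the family's differences spanned a wide range. *Oas2* had −0.88 (SE 0.16, adjusted p = 0.0758). *Oas3*, which lies beside *Oas2*, had −0.45 (SE 0.19, adjusted p = 0.358), less than the gap of 0.52 between its WT arrays.

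Genes of the ISG15 system attach and remove ISG15, a ubiquitin-like protein that is linked to viral and host proteins. *Usp18*, the protease that removes ISG15 and also damps signaling at the interferon receptor, had log2 values of 10.55 and 10.48 in WT and of 9.30 and 9.01 in the KO-labelled arrays. It fell by 1.37 (SE 0.15, adjusted p = 0.0242 from limma). The enzymes that attach ISG15 had smaller differences. *Uba7*, the activating enzyme, had a difference of −0.66 (SE 0.14, adjusted p = 0.108), *Ube2l6*, the conjugating enzyme, −0.61 (SE 0.13, adjusted p = 0.113) and *Herc6*, the main ligase in the mouse, −0.90 (SE 0.25, adjusted p = 0.186). For all 3 both KO-labelled arrays were below both WT arrays, which held for 31.8% of all genes. Among ubiquitin ligases of the TRIM family, *Trim30a* had 9.77 and 9.20 in WT and 7.93 and 7.86 in the KO-labelled arrays, and fell by 1.59 (SE 0.20, adjusted p = 0.0305). *Trim25*, which acts on RIG-I, had a difference of −0.51 (SE 0.13, adjusted p = 0.162).

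Antiviral effectors were lower in 8 of 8 cases, and here lay the member with the largest difference of all. *Rtp4*, a chaperone for receptors on their way to the cell surface that interferon induces, had log2 values of 9.51 and 9.38 in WT and of 7.17 and 6.93 in the KO-labelled arrays. It fell by 2.40 (SE 0.15, adjusted p = 0.00339 from limma), a level 5.26-fold higher in WT, and both WT arrays were far above both KO-labelled arrays. *Ifitm3*, which hinders the fusion of viruses with endosomes, had 12.51 and 12.45 in WT and 11.65 and 11.61 in the KO-labelled arrays. It fell by 0.85 (SE 0.13, adjusted p = 0.0499), just inside the threshold, and with median centring of the arrays it had −0.81 and an adjusted p of 0.0509. *Rsad2*, whose product viperin makes a nucleotide that stops viral RNA synthesis, had 9.13 and 8.27 in WT and 7.06 and 7.02 in the KO-labelled arrays, a difference of −1.66 (SE 0.27, adjusted p = 0.0613). Its neighbour on chromosome 12, the nucleotide kinase gene *Cmpk2*, had −0.56 (SE 0.16, adjusted p = 0.186). *Bst2*, which encodes the virus tether tetherin, had −0.80 (SE 0.15, adjusted p = 0.0825) and *Samd9l*, a restriction factor of poxviruses, −0.90 (SE 0.16, adjusted p = 0.0731). The GTPase genes *Mx1* and *Mx2* did not pass. *Mx1*, which is defective in C57BL/6 mice, had values between 4.82 and 5.27 on the 4 arrays and a difference of −0.28 (adjusted p = 0.422). *Mx2* had 6.95 and 5.50 in WT and 5.35 and 5.02 in the KO-labelled arrays, and its difference of −1.04 (adjusted p = 0.349) was −0.31 against WT replicate 2 alone.

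The remaining members showed the same direction. *Parp14*, an ADP-ribosyltransferase, had log2 values of 9.55 and 8.75 in WT and of 7.51 and 7.43 in the KO-labelled arrays, a difference of −1.68 (SE 0.26, adjusted p = 0.0534 from limma). *Parp9* and *Dtx3l*, whose products work as a pair, had −0.65 (adjusted p = 0.101) and −0.57 (adjusted p = 0.130), and the 3 genes lie next to each other on chromosome 16. *Lgals3bp*, a secreted protein that binds galectins, had 10.19 and 10.28 in WT and 9.16 and 8.98 in the KO-labelled arrays. It fell by 1.16 (SE 0.14, adjusted p = 0.0270), with separate groups and WT replicate 2 the higher of the WT arrays. *Xaf1*, a partner of the apoptosis inhibitor XIAP, had a difference of −1.68 (SE 0.31, adjusted p = 0.0798). *Ifi35*, *Tor3a* and *Ifi27l2a* had −0.92, −0.88 and −0.65 with adjusted p of 0.0825, 0.0591 and 0.157. In each, both KO-labelled arrays were below both WT arrays, which held for 31.8% of all genes.

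The WT arrays differed between themselves in these genes, and the size of the differences depended on which was used. WT replicate 1 was above WT replicate 2 for 34 of the 40 members (85%), against 41.6% of all genes, with a median gap of 0.30 for the members and of −0.059 over all genes. The gap between WT arrays exceeded 0.5 in 11 members and the gap between KO-labelled arrays in 0. In 4 members, *Oas3*, *Ifit2*, *Ddx60* and *Mx2*, it was larger than the difference between genotypes. Among the 10 members that fell it was at most 0.57. Against WT replicate 1 alone the median difference of the members was −1.03 and 39 of 40 were lower, beside −0.034 and 53.9% over all genes. Against WT replicate 2 alone it was −0.73 and 40 of 40 were lower, beside −0.058 and 63.8% over all genes. For the 39 members whose KO-labelled arrays both lay below both WT arrays, these counts follow from that separation. They are no separate evidence for the direction. A mean at least 2-fold below was found for 21 members against WT replicate 1 (1.94% of all genes) and for 15 against WT replicate 2 (0.838% of all genes). KO replicate 1 was above KO replicate 2 for 34 members too, a share of 85% beside 78.3% of all genes, with a median gap of 0.15 beside 0.10 over all genes.

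**Figure D3:**
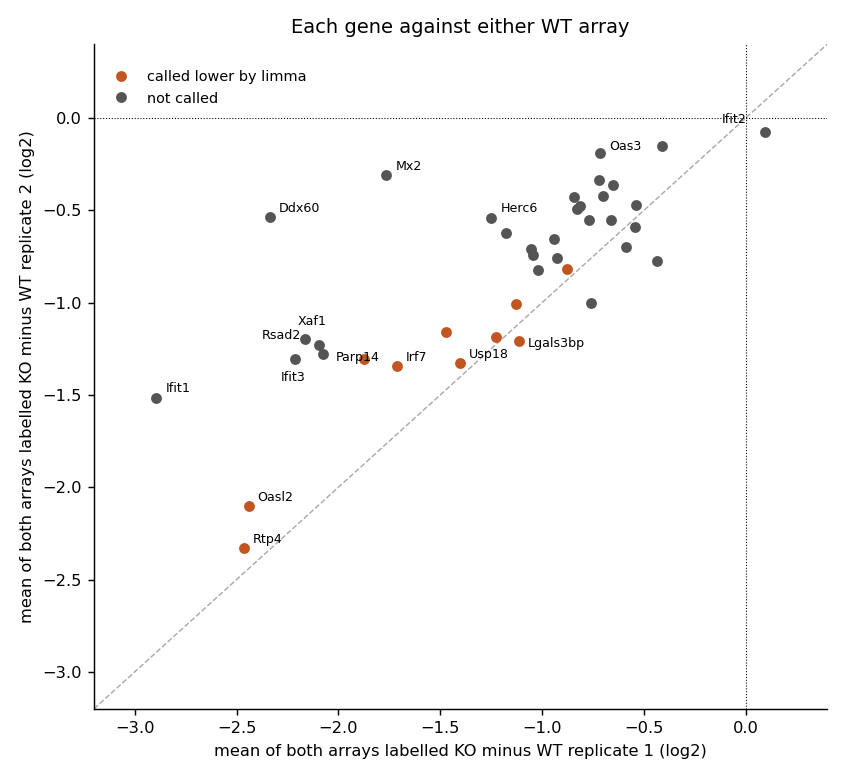
Mean of both KO-labelled arrays minus WT replicate 1 (horizontal) and minus WT replicate 2 (vertical), on the log2 scale, for each of the 40 measured members; orange points are the 10 called lower by limma, and the dashed line marks equal values. *Rtp4* and *Oasl2* lie near the line at the far end, while *Ifit1*, *Ddx60* and *Mx2* lie above it, being closer to WT replicate 2 than to WT replicate 1.

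Genes upstream had medians nearer to 0. For the counts that follow, the shares of all genes were 58.8% with a lower mean, 0.702% called lower and 8.58% lower at an unadjusted p under 0.05. Of 13 listed interferon genes 11 were measured, 10 of them with a lower mean in the KO-labelled arrays and a median difference of −0.16. In limma's test none of them was called, and 1 had an unadjusted p under 0.05. *Ifna12*, a type I interferon, had the smallest p, with log2 values of 5.92 and 5.50 in WT and of 5.16 and 5.06 in the KO-labelled arrays, a difference of −0.60 (SE 0.17, adjusted p = 0.194). *Ifng*, the type II interferon, had a difference of −0.24 (adjusted p = 0.470). *Ifna12* and *Ifng* lay below the median of all genes on every array, which was 8.19 to 8.34, and no detection call was used here. Of 9 receptor and receptor kinase genes, 8 had a lower mean, with a median of −0.29, 0 called and 2 lower at an unadjusted p under 0.05. The smallest p values were those of *Il10rb*, a receptor chain that interferon lambda shares with interleukins, at −0.49 (adjusted p = 0.204), and of *Ifngr1*, a chain of the interferon gamma receptor, at −0.42 (adjusted p = 0.226).

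Beside the same shares of all genes, among 11 measured signal transducers and sensors outside the list, 10 had a lower mean, with a median of −0.25, 0 called and 5 lower at an unadjusted p under 0.05. *Irf8*, a transcription factor of macrophages and dendritic cells, had −0.58 (SE 0.14, adjusted p = 0.148) and *Ikbke*, a kinase of interferon regulatory factors, −0.46 (adjusted p = 0.2005). Of 11 inhibitors of the pathway 5 had a lower mean, a share near the 58.8% of all genes, with a median of 0.028 that was −0.10 without WT replicate 1, 0 called and 0 with an unadjusted p under 0.05. The smallest p values belonged to *Irf2bp1*, a corepressor, at 0.52 (adjusted p = 0.367) and *Cish*, a member of the SOCS family, at −0.37 (adjusted p = 0.407). At 0.702% of all genes called lower, a count of 0 in lists of this size is near the background.

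**Figure D4:**
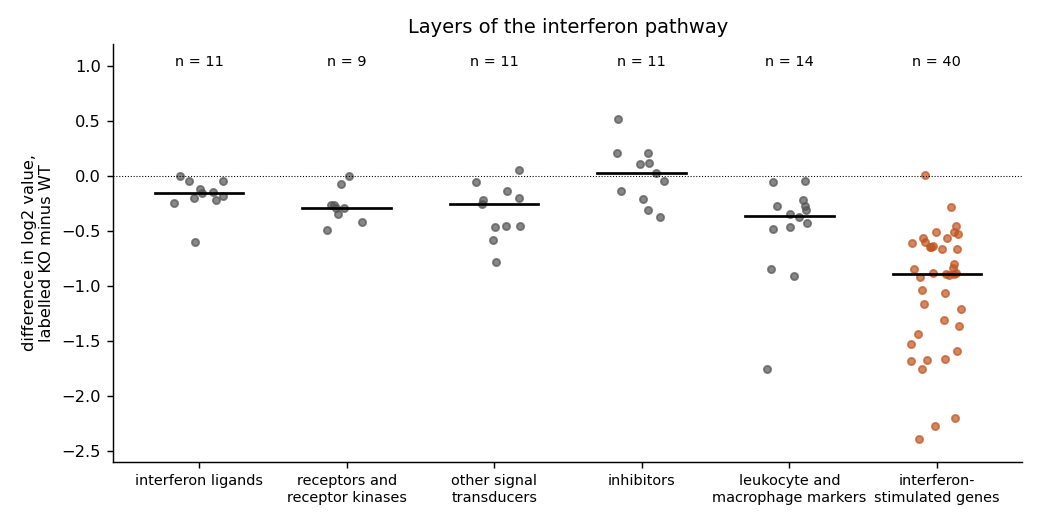
Difference in log2 value (labelled KO minus WT) of each measured gene of 4 lists of the interferon pathway, of leukocyte and macrophage markers and of the interferon-stimulated genes, with the median of each list as a bar and the number of genes above it. The interferon-stimulated genes have a median of −0.89, and the ligands, receptors and kinases, other transducers and inhibitors have medians of −0.16, −0.29, −0.25 and 0.028.

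Markers of leukocytes and macrophages, cells that express many of these genes, were lower in the KO-labelled arrays too. All 14 measured markers had a lower mean (58.8% of all genes). At an unadjusted p under 0.05, 8 of them were lower (8.58% of all genes). The median difference of the 14 was −0.36, over a wide range from −1.76 to −0.051. Their summed level on the linear scale was 14191 to 14851 in the WT arrays and 6786 to 7369 in the KO-labelled arrays. Such a sum is weighted towards bright probe sets and does not compare genes. *Lyz2*, lysozyme, which alveolar epithelium also makes, fell by 1.76 (SE 0.14, adjusted p = 0.00803 from limma) and was the only one of these 14 markers called. Without *Lyz2* the sum was 5251 to 5920 in WT and 4223 to 4658 in the KO-labelled arrays. *Ptprc*, the pan-leukocyte antigen CD45, had log2 values of 8.54 and 8.37 in WT and of 7.82 and 7.26 in the KO-labelled arrays, a difference of −0.91 (adjusted p = 0.122). Neutrophil markers were lower in 8 of 8 cases with a median of −0.25, and markers of lymphocytes and plasmacytoid dendritic cells in 8 of 9 with a median of −0.17, with 0 called in either list and 2 lower in each at an unadjusted p under 0.05. Among neutrophil markers *S100a8* and *S100a9*, subunits of calprotectin, had −0.87 (adjusted p = 0.0606) and −0.71 (adjusted p = 0.264), and *Elane*, neutrophil elastase, −0.23. The B cell genes *Cd79a* and *Ms4a1* had −0.43 and −0.40 (adjusted p = 0.247 and 0.336), and the T cell gene *Cd3e* −0.17. Endothelium markers were lower in 6 of 7 cases with a median of −0.34, among them *Car4*, which fell by 2.999 (adjusted p = 0.00283), *Vwf* at −0.51 and *Pecam1* at −0.25. Mesenchyme markers were higher in 6 of 8 cases (41.2% of all genes) with a median of 0.14. Among them *Dcn* rose by 1.13 (adjusted p = 0.0455), and *Col1a1* and *Col1a2* were at 0.21 and 0.18. All 4 erythroid markers had a lower mean, with 0 called, 1 at an unadjusted p under 0.05 and a median of −0.15, *Alas2* at −0.66 (adjusted p = 0.0873) and *Hbb-bh1* at −0.19. The part of these cells in the lower values of the interferon-stimulated genes was not tested. In RNA of a whole organ, fewer cells of a type and less RNA per cell cannot be told apart.

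Members with and without the response element core in their promoter window both had lower values. Of the 31 genes in the promoter table, 29 were measured, 12 of them with the element and 17 without it. The median difference was −1.11 with the element, over a range from −2.20 to −0.45, and −0.66 without it, over a range from −2.27 to 0.0081. Of the members that fell, 3 had the element and 4 did not, and *Rtp4*, *Usp18* and *Dhx58* were not in the table. The first base of the element lay between positions −222 and 33 from the start of transcription. A second motif, the gamma-activated sequence TTCNNNGAA, which reads the same on both strands and is bound by STAT dimers, was found for 7 of the 31 genes (22.6%) and for 9.55% of all genes in the table. Among 29 measured genes the median difference was −0.64 for the 7 that held it and −0.99 for the 22 that did not. It overlapped 2 of the 21 matches of the element core, in *Ifitm3* and *Bst2*. A match is a description of the letters and does not show that a protein binds there.

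**Figure D5:**
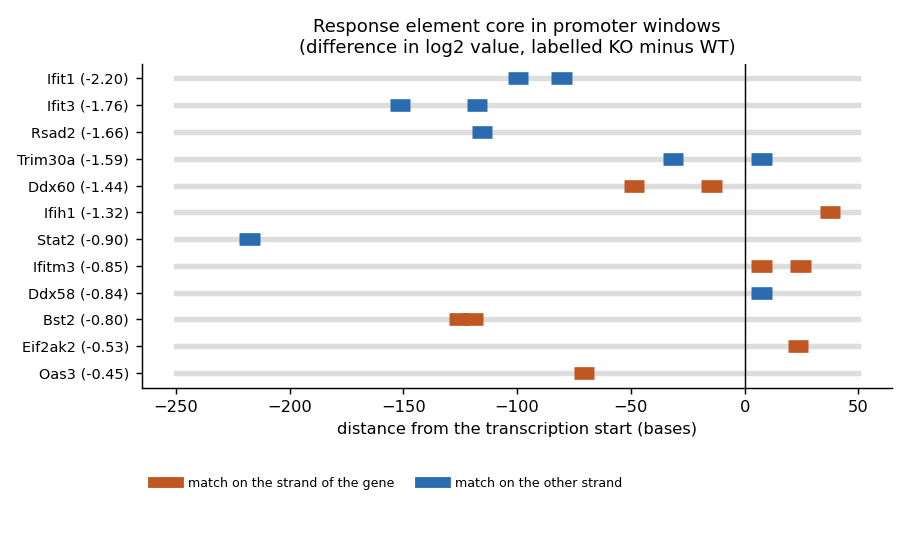
Positions of the response element core relative to the transcription start (in bases) in the promoter windows of the 12 measured members that hold it, in order of their difference in log2 value (in parentheses, labelled KO minus WT), with matches on the strand of the gene in orange and on the other strand in blue. *Trim30a* has 2 windows from 2 start sites drawn on 1 line, and the overlapping matches of *Bst2* appear as 1 block; matches lie on both sides of the start.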

How the data were processed

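The deposited values are log2 signals that the authors obtained by RMA, using Affymetrix Expression Console (submitters' processing notes, no version). RMA corrects background, quantile-normalizes arrays and summarises probes by median polish. Even so, the median over the measured genes was not the same on all arrays. It was 8.19 in WT replicate 1 and KO replicate 2, and 8.34 in WT replicate 2 and KO replicate 1. These pairs cut across genotype, and their cause was not tested. No call of signal over background comes with the deposited values, and 4 arrays limit the precision. Of 30177 probe sets, 21789 had 1 gene symbol in the platform's annotation, 1621 had several and 6767 could not be named. For genes with several, the brightest was kept, giving 19938 genes, and all 40 measured members matched RefSeq by Entrez ID. Tests used R 4.3.3 and its limma package, version 3.58.1 (functions lmFit and eBayes, residual degrees of freedom 2, prior 4.42), adjusted over all genes at 0.05, and the code was tested on simulated data. With 2 arrays against 2 an exact permutation test cannot go below p = 0.333. Members, roles and lists were chosen with earlier results of these data known. The rule for genes named was all members, *Hmga2*, in pathway lists the genes called or else the 2 with the smallest p, and in marker lists the first gene and the 2 with the smallest p. *Sftpa1*, *Sftpc* and *Epcam* were named after their values were seen. Alternatives were the replicate block, median centring, cyclic loess, dropping the 40 percent of genes that were dimmest, averaging probe sets, eBayes with trend and robust, each array left out, and a threshold of 0.10. Figures used matplotlib 3.10.9.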

Additional observations from a re-analysis of the deposited data

How the results depend on the processing

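The count of members called lower, 10 with all arrays, was 25 with the replicate block, 16 without the dimmest 40 percent of genes (30 members kept), 21 at a threshold of 0.10, and from 0 to 39 with 1 array left out. Median centring, cyclic loess, the mean of probe sets and eBayes with trend and robust gave 9, 12, 9 and 13. The share of all genes called lower was 0.702% in the main fit and 1.81% with the replicate block. It was 1.90% of the genes kept without the dimmest and 1.76% at a threshold of 0.10. Median centring, cyclic loess, the mean of probe sets and eBayes with trend and robust had shares of 0.732%, 1.33%, 0.662% and 0.858%. The median difference of the members ran from −1.03 to −0.73 with 1 array left out. With 1 array left out, *Ifit2* (0.0081) ran from −0.11 to 0.13 and *Hmga2* (0.051) from −0.076 to 0.18, below 0 without WT replicate 1 (−0.077 and −0.069) and without KO replicate 1. The call on *Ifitm3* also ended with the mean of probe sets. Over all genes, 140 fell and 16 rose. These counts were 361 and 241 with the replicate block, 265 and 70 with cyclic loess, 227 and 74 without the dimmest genes, 350 and 107 at 0.10, and from 0 to 2971 and from 0 to 3321 with 1 array left out. Genes that rose numbered 27 with median centring and 25 with trend and robust. With 1 array left out, the genes called rose from 0 to at most 2 of the ligands and 4 of the receptors and kinases. For the transducers and the inhibitors they rose from 0 to at most 5 and 2. These calls arose only without WT replicate 1 or WT replicate 2. There 5.68% and 14.9% of all genes were called lower and further genes higher, so the counts do not single out these lists. The medians of ligands, transducers and inhibitors ran from −0.22 to −0.066, from −0.44 to −0.18 and from −0.10 to 0.10 with 1 array left out. With cyclic loess the median of the ligands was −0.064. The replicate numbers are not stated to mark a shared litter or day, and the deviations of arrays with the same number correlated at −0.24. A crossed pairing, chosen after seeing the data, joined WT replicate 1 with KO replicate 2 and WT replicate 2 with KO replicate 1. These are the arrays of like median. It called 18 members, and 305 lower and 207 higher genes. The cause of these shifts was not tested. The spread between 2 arrays limits all calls.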
